A study of Zeugodacus cucurbitae with 6 samples.

Results

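The transcriptome of untreated 3rd instar larvae of the melon fly, Zeugodacus cucurbitae, was described from the 3 non-irradiated libraries of the series, out of 6 libraries in all. They were chosen by their label alone. These libraries came from eggs that were about 25 h old and received a dose of 0 Gy, where the other 3 libraries came from eggs exposed to 60Co. Larvae that hatched were raised on an artificial diet, and each library was made from a pool of 20 whole 3rd instar larvae, frozen in liquid nitrogen, with 1.5 µg of RNA, poly-T purification of mRNA and paired reads of 150 bp. No strain, sex or time within the instar is given in the labels. The pools are called pool 1, pool 2 and pool 3, and their numbers are names without an order. The table listed 12834 genes, of which 1033 carried a gene symbol (called symbol-named here) and 11801 only a number.

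The last larval instar of a fruit fly is a feeding and growing stage. The body wall muscles move the animal, the gut digests the food, and the fat body stores lipid and glycogen and secretes proteins into the haemolymph. Towards the end of the instar pulses of the steroid hormone ecdysone stop feeding and start metamorphosis, so that larvae of one instar can differ in physiology. The symbols are those of similar genes in other species, and a suffix such as _0 or _11 numbers the copies that share a symbol. The role given for each gene is that of the gene its symbol comes from, mostly in Drosophila or mammals. Reads can be shared between closely related copies, so values of numbered copies are uncertain to that degree.

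The libraries held 13192748, 14115043 and 16344295 counts over genes, and 11697, 11435 and 11708 genes had at least 1 count. A gene had a count in every pool in 10867 cases, and 428 genes were at 0 in all 3 pools. One count was worth between 0.0612 and 0.0758 CPM (counts scaled to 1000000 per library), and a count of 0 allowed a level of up to 0.184 to 0.227 CPM (3 counts). Levels are given below as FPKM, fragments scaled to the length of the gene and the size of the library, which can be compared between genes. Errors are the SD over the 3 pools (n = 3), and no test was run because 1 group is described.

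Transcript abundance was very uneven, with few genes at the top. A mean FPKM of at least 1 was reached by 8756 genes, of at least 10 by 4151, of at least 100 by 905 and of at least 1000 by 165. The median gene had 3.98 FPKM. The 10 genes with the highest mean FPKM took 12.9% ± 1.25 of all counts (11.5% to 13.7%), the highest 100 took 34.4% ± 1.76, and the highest 1000 took 74.0% ± 1.48. Between 176 and 205 genes were enough for 50% of the counts of a pool, and between 2336 and 2623 for 90%.

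**Figure D1:**
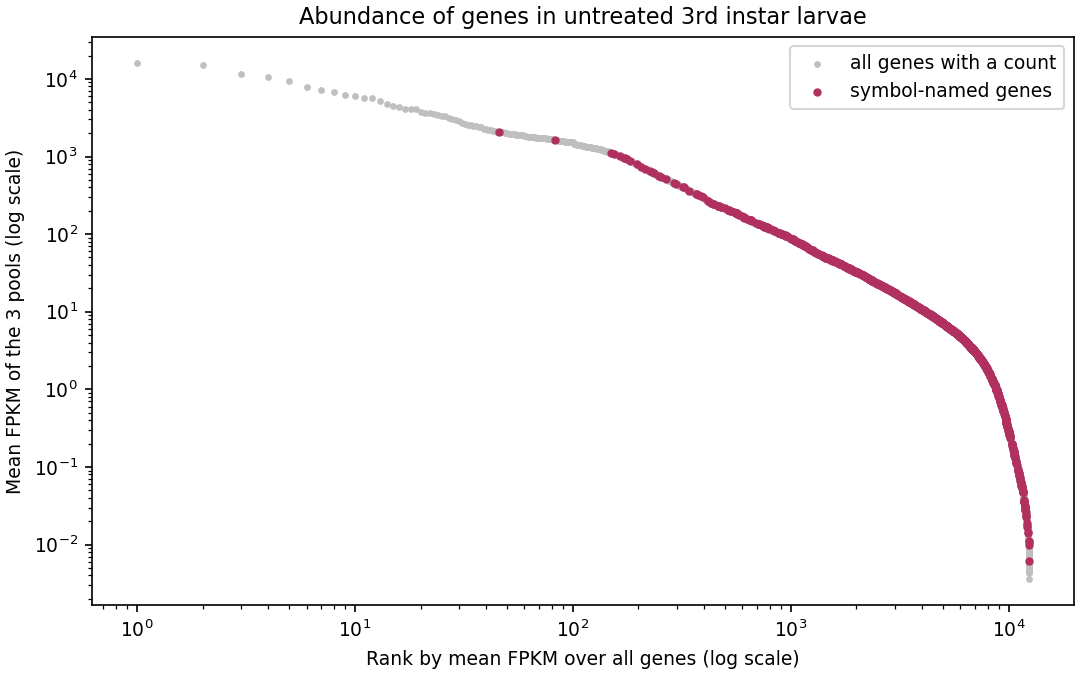
Mean FPKM of the 3 untreated pools (log axis) against the rank of each gene (log axis), grey for all genes with a count and red for symbol-named genes. The first symbol-named gene stands at rank 46, and the curve falls below 1 FPKM after rank 8756.

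The highest genes were known only by number. LOC105213296 had 12977, 17717 and 17954 FPKM in pools 1, 2 and 3, a mean of 16216 ± 2808, and alone took 3.64% of the counts. LOC105218117 followed with 13847, 18251 and 13495 FPKM, a mean of 15198 ± 2650, and 1.29% of the counts. Their ranges over the pools overlapped, so the order of the first and second gene was within the spread. All of the 10 highest genes carried a number only, with mean levels from 5963 to 16216 FPKM and a coefficient of variation (CV, the SD divided by the mean) from 0.0690 to 0.447.

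The genes highest by FPKM were short and often neighbours. The 100 highest genes had a median length of 818.5 bases (345 to 8086), against 1181.5 for the next 900 and 1855.5 for all genes. The lengths are those that the deposited FPKM values imply. FPKM divides by this length, so the ranking itself favours short genes, and the difference in length is not a separate result. Of the 98 highest genes that could be placed in a reference gene order, 20 (20.4%) lay directly beside another of the 100 highest, against 172 of 11734 (1.47%) other genes. Whether these neighbours are related copies, between which reads can be ambiguous, was not tested. Neighbouring values may therefore not be separate measurements.

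Symbol-named genes were commoner in the middle of the range than at the top. Their median was 7.51 FPKM, and 83.0% reached 1 FPKM against 66.9% of the genes known by number. They took 9.90% to 10.1% of the counts of a pool. Beside 1033 symbol-named genes among all 12834, 2 were among the 100 highest genes and 111 among the 1000 highest. Without division by gene length 10 were among the 100 highest by CPM. Their median length was 2361 bases.

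The symbol-named genes with the highest means included contractile proteins and translation factors, at places 1, 2, 4 and 6. Mlc1_1, in Drosophila a light chain of muscle myosin, had 1740, 2147 and 2316 FPKM, a mean of 2068 ± 296, at rank 46 of all genes. Ef2b, the elongation factor that moves the ribosome along the mRNA, had 1638, 1614 and 1706 FPKM, a mean of 1652 ± 47.7. The ranges of these genes did not overlap, so Mlc1_1 stood above Ef2b in every pool. Ef1gamma, a subunit of the elongation factor 1 complex, had 1093, 1043 and 1116 FPKM, and Tm2_1, a tropomyosin of the thin filament, had 877, 984 and 1019 FPKM. The CVs of Ef2b and Ef1gamma, 0.0289 and 0.0346, were the lowest of the 15 highest symbol-named genes.

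A small heat shock protein, a P450 and a gene named Chit were as abundant but spread far more. Hsp23_6, a chaperone that holds unfolded proteins, had 1420, 1265 and 666 FPKM (1117 ± 398). Cyp304a1_0, a cytochrome P450 monooxygenase, had 1273, 958 and 625 FPKM (952 ± 324). Chit had 504, 986 and 1141 FPKM (877 ± 332). These were the 3 of the 15 whose highest pool was at least 2-fold above the lowest. Under trimmed mean of M values (TMM) scaling, which sets the bulk of genes equal between pools, 2 of the 15 reached 2-fold, Chit and Ald_5.

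Enzymes of central metabolism filled much of the rest. Ald_5, the glycolytic aldolase, had 691, 1031 and 1311 FPKM (1011 ± 311). Eno, enolase, had 580, 717 and 796 FPKM, and Mdh2_0, a malate dehydrogenase of mitochondria, had 512, 631 and 684 FPKM. Pool 1 was the lowest for each. Tpi_1, triosephosphate isomerase, had 491, 768 and 665 FPKM. Pool 1 was the lowest here as well, while pool 2 was the highest.

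The remaining genes covered proton pumping, lipid transport and redox balance. Vha13, a subunit of the vacuolar proton pump, had 924 ± 58.5 FPKM. Rfabg_1, the lipophorin precursor that carries lipid through the haemolymph, had 775, 864 and 769 FPKM over a length of 10304 bases, and with 0.827% of the counts took the most of the symbol-named genes listed. Trx-2_0, a thioredoxin, had 727, 843 and 651 FPKM. Crc_0, whose symbol is used for more than one protein, had 624 ± 140 FPKM. Together the 15 genes took 3.16% of the counts. The order near the end of the list was within the spread: Mdh2_0, the last of the 15, had 609 ± 88.0 FPKM and the next gene, Sod, superoxide dismutase, 562 ± 54.7.

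**Figure D2:**
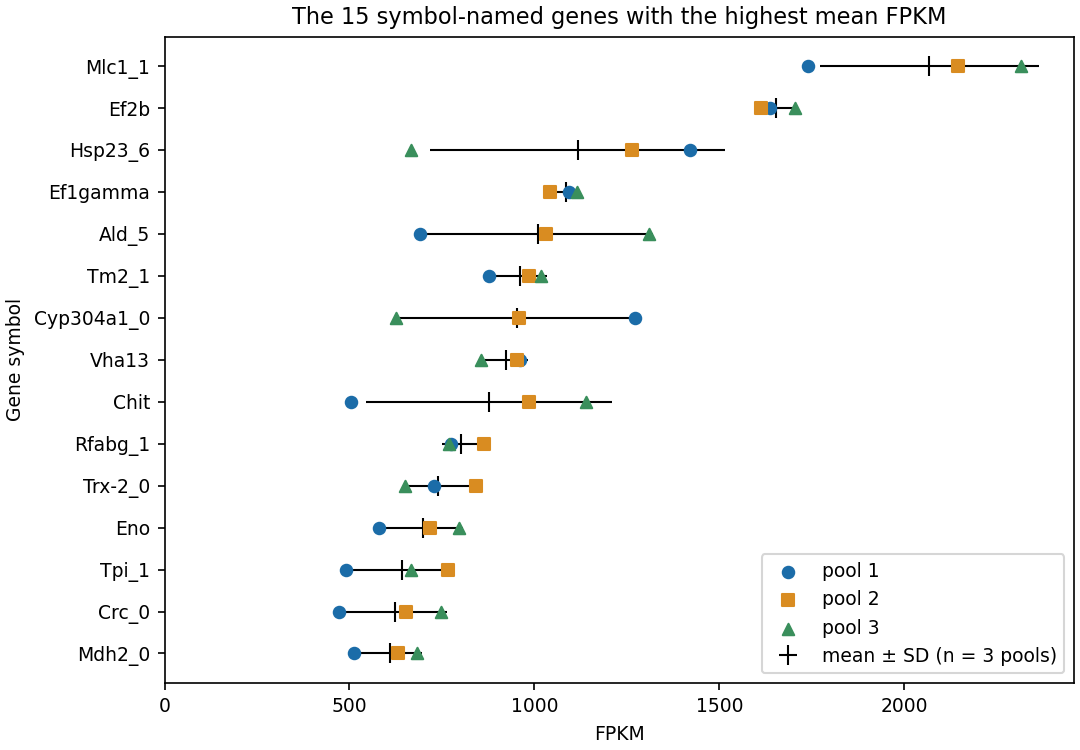
FPKM of the 15 symbol-named genes with the highest mean, 1 point for each pool and a black line for mean ± SD (n = 3), on a linear axis from 0. Ef2b and Ef1gamma lie close together in all pools, while Hsp23_6, Cyp304a1_0 and Chit spread over at least 2-fold.

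Groups of genes of one function filled the list in a similar way. The muscle list had 5 genes whose mean reached 5 CPM, among them Tm1_1, tropomyosin 1, at 323 ± 25.9 FPKM, Prm_3, paramyosin, at 311 ± 55.8 and Actn_1, alpha-actinin of the Z disc, at 186 ± 44.6. None spread over 2-fold, and pool 1 was the lowest in 5 of 5, under TMM as well. Over all symbol-named genes pool 1 was the lowest in 22.2% by library total and in 38.2% under TMM. Idgf4_0 and Idgf4_1, secreted growth factors related to chitinases, had 444 ± 68.8 and 185 ± 17.3 FPKM. Lsd-2 and Lsd-1, coat proteins of lipid droplets in the fat body, had 267 ± 58.7 and 255 ± 144 FPKM. In bulk tissue fewer cells of a type and less RNA per cell cannot be told apart.

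A list of 9 symbols for yolk, vision and smell, fixed as markers of adults, was read beside the label. Some of them, such as Orco and Rh6, also act in larvae, so that the list does not test the stage, and 4 of the 9 were above 1 FPKM. The other 5 stayed at or below 0.545 FPKM, among them Orco, the odorant co-receptor, at 0.106 and Rh4_1, an opsin, at 0.0698. Rh6, another opsin, had 3.21 ± 0.658 FPKM and Arr1, an arrestin, 2.43 ± 0.789. Yp3_1 had 9.95 ± 1.40 FPKM. The highest was Yp3_0, a symbol of yolk protein 3, which had 159, 100 and 242 FPKM. Which tissue gave the Yp3_0 reads was not tested. Among neuronal and patterning symbols Syt1_0, a synaptic calcium sensor, at 0.478 ± 0.236 FPKM and Ubx_2, a Hox protein, at 2.02 ± 0.277 lay below the median gene, and Nrg, a neural adhesion protein, at 9.40 ± 1.15 lay above it. No larval serum or larval cuticle protein symbol was among the symbol-named genes, so these classes could not be checked.

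The 3 pools ranked genes almost alike, yet differed by more than counting error. Across genes Spearman's rho was 0.977 for pools 1 and 2, 0.970 for pools 1 and 3, and 0.974 for pools 2 and 3, a description across genes, which are not replicates. Over 7433 genes with a mean of at least 5 CPM the median CV was 0.171, where counting error alone gave a median of 0.0505. The 793 symbol-named genes among them had a median CV of 0.168 and a counting median of 0.0434. The CV was above the counting value in 92.1% of all and 94.2% of symbol-named genes. The common biological coefficient of variation over genes, estimated with edgeR, was 0.309.

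Large differences between untreated pools were not rare. The highest pool was at least 2-fold above the lowest in 1048 of 7433 genes, 14.1%, and in 98 of 793 symbol-named genes, 12.4%. At least 4-fold was reached by 249 and 20 genes. A CV of at least 0.5 was found in 6.66% of all genes and 4.92% of symbol-named genes, and a CV below 0.1 in 23.1% and 21.9%. Among symbol-named genes the median CV was 0.189 for 263 genes of 5 to 20 CPM, 0.156 for 348 genes of 20 to 100 CPM, 0.168 for 168 genes of 100 to 1000 CPM and 0.146 for 14 genes above. Over all genes the share past 2-fold was 13.4%, 12.6%, 18.6% and 19.2% in the same steps, higher in the upper steps.

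**Figure D3:**
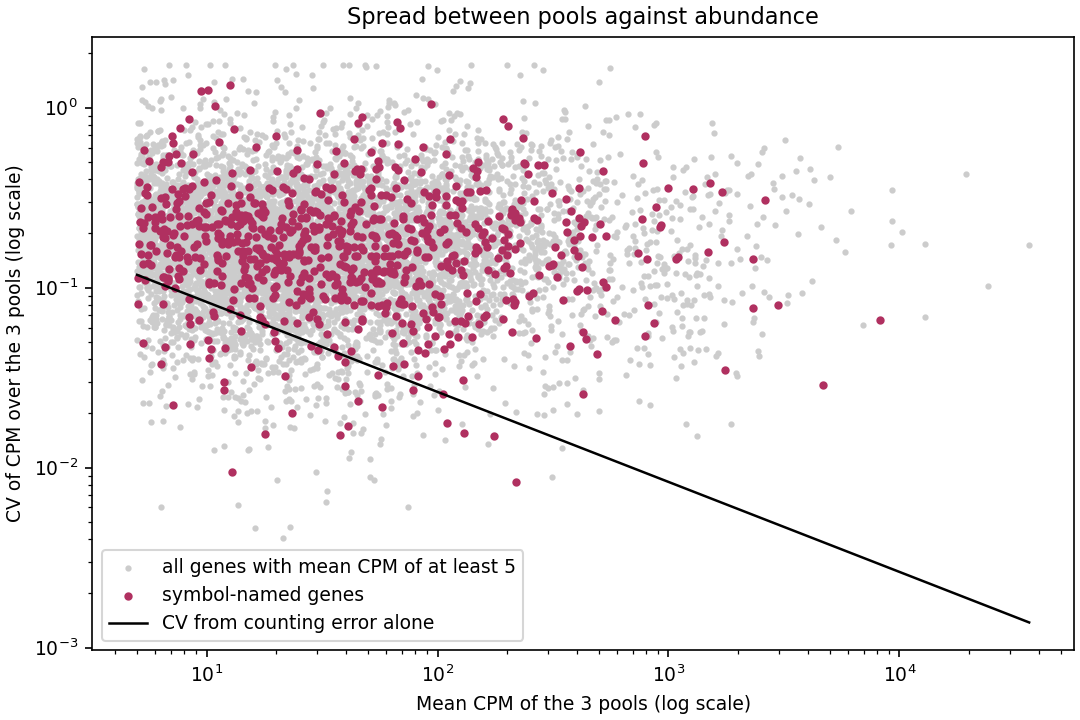
CV of CPM over the 3 pools (log axis) against mean CPM (log axis), grey for the 7433 genes whose mean reached 5 CPM and red for the 793 symbol-named genes, with a black line for the CV that counting error alone gives. Of the symbol-named genes 94.2% lie above their counting value, also at high abundance.

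Which pool was the high one depended on the scaling. By library total the median gene was lower than in pool 1 by a log2 difference of -0.18 in pool 2 and -0.14 in pool 3, and pool 1 was the highest for 53.2% of all genes. Under TMM these medians were 0.03 and 0.01, and pool 1 was the highest for 32.9%. Of the 98 symbol-named genes past 2-fold, 49 were highest in pool 1, 12 in pool 2 and 37 in pool 3. Under TMM 88 genes passed, with 27, 19 and 42. Of the 100 highest of all genes pool 1 was the highest in 49 by library total and in 9 under TMM. The 100 highest genes took between 32.6% and 36.1% of the counts of a pool, and the part of this in the shift was not tested.

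The 15 symbol-named genes that varied most included a chitinase, a lipase, a protease and genes of lipid handling and oxidation. Their values are given as CPM, which compares pools and not genes, with the ratio of the highest to the lowest pool and its 95% exact interval for counting error only. Pool 3 was the highest in 8, pool 1 in 6 and pool 2 in 1, the same numbers under TMM, and all 15 also passed 2-fold under TMM. At the threshold the CV was 0.764 for Klhl21_3, the last inside, and 0.698 for Sbk1_2, the first outside.

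The 8 genes that were highest in pool 3 differed in how far pool 2 stood from it. Egfl8_0 had 4.55, 1.42 and 32.0 CPM in pools 1, 2 and 3, a ratio of 22.6 (14.5 to 37.3). Cht3_11, a chitinase, which breaks down cuticle chitin, had 3.79, 1.98 and 24.8 CPM, a ratio of 12.5 (8.51 to 19.0). Gld_10, of the glucose dehydrogenase type, had 29.4, 44.99 and 206 CPM, a ratio of 6.998 (6.30 to 7.79). In these genes pool 3 stood far above both others.

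Among them were 3 genes of sphingomyelin and sterol handling. Smpd1_3, acid sphingomyelinase, had 31.8, 183 and 362 CPM, a ratio of 11.4 (10.3 to 12.6), and its copy Smpd1_2 had 1.21, 4.32 and 22.9 CPM, a ratio of 18.9 (11.5 to 33.4). Npc1_0, which moves sterol across membranes, had 37.5, 211 and 355 CPM, a ratio of 9.47 (8.64 to 10.4). The 3 genes had the same order of pools, with pool 1 the lowest and pool 3 the highest. Over the whole list of 10 such genes pool 3 was the highest in 5, pool 1 in 4 and pool 2 in 1, and the copy Smpd1_1 had 67.0, 33.6 and 53.8 CPM, with pool 1 the highest. Kcp_3 had 5.31, 3.33 and 14.3 CPM, with pools 1 and 2 both low.

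The 6 genes that were highest in pool 1 included a protease, a lipase and a pair of P450s. Prss44_0, a serine protease, had 64.3, 16.6 and 11.9 CPM, and Lip3_2, a lipase, had 16.8, 4.68 and 3.73 CPM. Cyp304a1_2 had 93.6, 13.2 and 34.7 CPM, and Cyp12a4_2, a mitochondrial P450, had 86.6, 15.7 and 33.3 CPM. Glt_3, of the glutactin type, had 129, 22.3 and 48.7 CPM. For both P450s and Glt_3 pool 2 was the lowest, whereas for Prss44_0 pool 3 was. Lip3_2 had 66 and 61 counts in pools 2 and 3, too close to name a lowest pool. Their families did not share one high pool: of 21 P450s pool 1 was the highest in 9 (7 under TMM), against 49.9% of symbol-named genes (31.6% under TMM), and the lipase Lip3_0 was highest in pool 3.

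Arc_0 had the largest ratio of the 15, against the smallest count in a single pool. It had 295, 139 and 5 counts, or 22.4, 9.85 and 0.306 CPM, a ratio of 73.1 (31.0 to 227). Hsp26, a small heat shock protein, was the only one of the 15 with its highest value in pool 2, at 58.1, 127 and 21.9 CPM. Klhl21_3, a kelch protein, was highest in pool 3 with 13.3, 2.98 and 23.0 CPM.

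**Figure D4:**
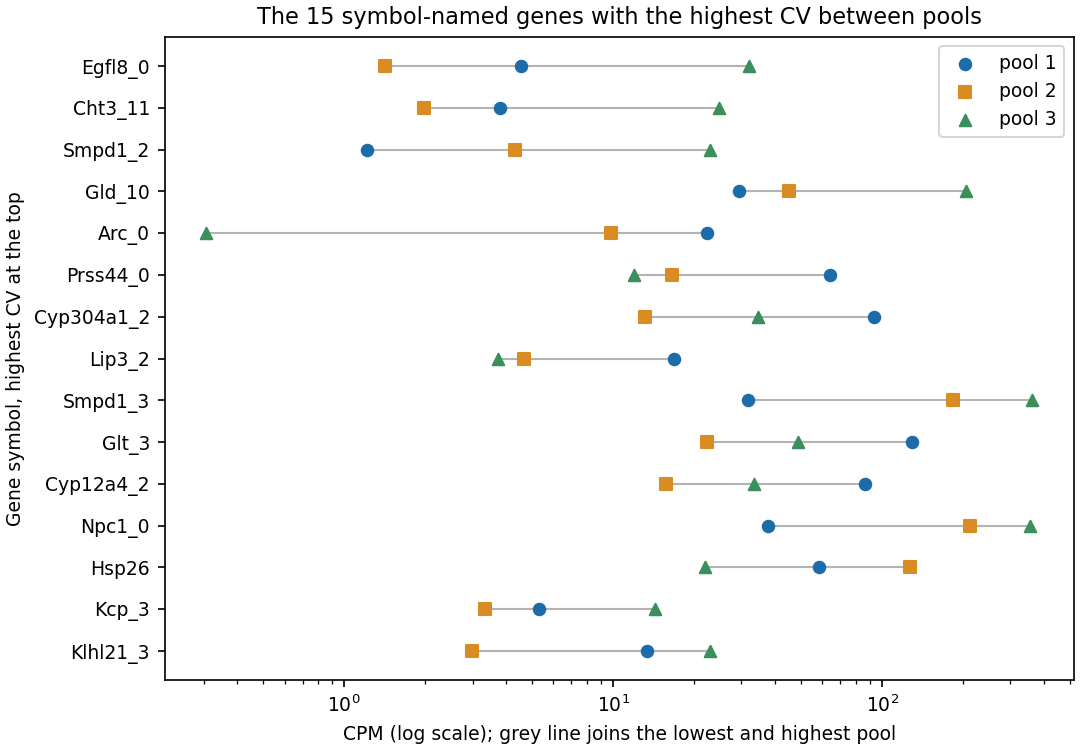
CPM (log axis) of the 15 symbol-named genes with the highest CV between pools, 1 point for each pool joined by a grey line from the lowest to the highest. Pool 3 is the highest in 8 of the 15 and pool 1 in 6, and Arc_0 spans 73.1-fold.

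Lists of genes by function were read against the 12.4% of symbol-named genes past 2-fold. Of the lists, 10 were written after the values were seen, and 12 matches were left out of lists then. The shares are therefore descriptions only. The digestive list held amylase, lipase and protease symbols, and whether they act in the gut was not tested. The cuticle and chitin list held Cht2, copies of Cht3 and Muc2_2, but no cuticle protein symbol. The digestive list had 6 of 9 measured members past 2-fold, Prss44_0 and Prss44_1 among them, and a median CV of 0.404. The cuticle and chitin list had 4 of 6 and 0.390 (0.328 with all matches of its pattern). Without pool 1 these counts were 2 of 8 and 1 of 6, without pool 2 they were 3 of 10 and 2 of 6, and without pool 3 they were 3 of 9 and 3 of 5. Over the same members the median CVs without pool 1 were 0.251 and 0.222. A 2-fold count over fewer pools cannot be larger for the same genes. Lip3_0, the most abundant digestive member, had 67.7, 46.0 and 133 FPKM, and Amy-d_0, an amylase that splits starch, had 12.9, 6.68 and 3.74 FPKM. Their highest pools differed, so the list did not move as one. Cht3_12, the most abundant member of the cuticle and chitin list, had 167, 83.2 and 121 FPKM. It passed narrowly, at a ratio of 2.01 (1.875 to 2.15). Chit, whose symbol the pattern of that list does not hold, was not counted in it.

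Other lists were small or mixed. Glucose dehydrogenase type genes had 3 of 4 members past 2-fold and a median CV of 0.517, and without single pools 0 to 2 members passed. Heat shock genes and chaperones had 2 of 6 and 0.300, Hsp23_6 and Hsp26, and 1 of 5 without pool 1 and 1 of 6 without pool 3, where the median CV over the same members was 0.192. Under TMM the ratio of Hsp23_6 was 1.98, that of Hsp26 6.06 and that of Hsc70-3_0 2.25, so that again 2 of 6 passed. Hsc70-3_0, the chaperone of the endoplasmic reticulum, had 326, 636 and 406 FPKM, with pool 2 the highest as for Hsp26. P450s had 6 of 21 and 0.230, or 5 of 21 under TMM and 2 of 21 without pool 1. Cyp9b2_0 and Cyp6g1, the latter known in Drosophila for insecticide metabolism, had 157 ± 21.3 and 128 ± 29.4 FPKM and did not pass. Sterol and sphingolipid genes had 3 of 10 and 0.224, namely Smpd1_3, Smpd1_2 and Npc1_0, and 1 of 10 without pool 1. This list and the glucose dehydrogenase list were written after the values were seen. Smpd1_3, Smpd1_2, Npc1_0 and Gld_10 were already among the 15 most variable genes, so these shares give no separate support. The same holds for the digestive list (Prss44_0, Lip3_2) and the cuticle and chitin list (Cht3_11). It also holds for the heat shock list (Hsp26) and the P450 list (Cyp304a1_2, Cyp12a4_2).

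Metabolic and transport lists ranged from 1 of 7 to 4 of 15 members past 2-fold. Glycolysis and sugar transport had 4 of 20 past 2-fold (3 under TMM) with a median CV of 0.228. Pool 1 was the lowest in 12 of 20 (13 under TMM), against 22.2% of symbol-named genes (38.2% under TMM). The glycolytic enzymes Pgk, phosphoglycerate kinase, at 207 ± 17.6 FPKM and Pfk_1, phosphofructokinase, at 47.4 ± 8.03 did not pass, and the 4 that passed by library total were Tret1 copies, a name of trehalose transporters. Without pool 2 the count was 1 of 19, and without pool 1 it was 2 of 20 with a median CV of 0.127. Lipid genes had 4 of 15 and 0.168, with 1 of 16 without pool 1 and 2 of 15 without pool 3. The members that passed included Lsd-1, at 249, 402 and 114 FPKM, and Vldlr_1, a lipoprotein receptor, at 61.4, 107 and 170 FPKM. Membrane transporters, a list that shares the Tret1 copies with glycolysis and sugar transport, had 10 of 57 and 0.220, or 5 to 6 of 56 without single pools (median CV 0.141 over the same members without pool 3), with Sv2c_0 at 124, 105 and 342 FPKM and the mitochondrial phosphate carrier Slc25a3_3 at 400 ± 21.4. Redox enzymes had 1 of 7 and 0.131 (0 of 7 without pool 1 or pool 3), the copy Gst1_1 of a glutathione transferase at 5.82, 10.9 and 12.5 FPKM.

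Lists of hormone and immune genes were short and low. Ecdysone and moulting genes had 1 of 2 past 2-fold, or 0 under TMM and without pool 1 or pool 2, the nuclear receptor Hr78_0 at 10.1, 4.93 and 8.22 FPKM. Immune genes had 1 of 3 (0 of 4 without pool 2, 2 of 4 without pool 3), Spz_1, the Toll ligand, at 7.44, 2.84 and 6.31 FPKM, beside Rel_1, an NF-kappaB factor, at 4.07 ± 0.254. ImpE2, an ecdysone-inducible gene known in the table by number, had 97, 10 and 326 counts. Eh_1, the eclosion hormone, had 1, 0 and 37 counts. Both were highest in pool 3, and Eh_1, with a mean of 0.780 CPM, lay below the minimum of 5 CPM. The 2 measured members of the ecdysone list went the other way. Hr78_0 and Kr-h1_3 were highest in pool 1, Kr-h1_3 with 76.3, 50.9 and 62.8 CPM.

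Housekeeping lists had low median CVs by library total. At the 12.4% of all symbol-named genes past 2-fold, lists of this length would hold few such members. Past 2-fold were 0 of 9 proteasome, 0 of 9 vacuolar proton pump, 0 of 23 chromatin and transcription, 0 of 10 aminoacyl-tRNA synthetase, 0 of 5 cell cycle and 0 of 16 secretory pathway genes, with median CVs of 0.131, 0.121, 0.125, 0.1104, 0.137 and 0.0826. Spase22-23, a signal peptidase subunit, had 127, 129 and 145 FPKM, and Su(var)205, heterochromatin protein 1, had 62.9, 38.3 and 35.8 FPKM. Over the same members the median CV was 0.0857 for the proteasome, 0.0791 for the proton pump and 0.0789 for chromatin without pool 1, and 0.0507 without pool 2 and 0.0687 without pool 3 for the synthetases. Under TMM 1 of 16 secretory genes passed, Hsc70-3_0, and their median CV was 0.133. For the proteasome, proton pump, chromatin, synthetases and cell cycle the TMM medians were 0.103, 0.125, 0.159, 0.123 and 0.0979. The median of all symbol-named genes under TMM was 0.161, and the chromatin list lay close to it. The proteasome subunits Prosbeta7 and Rpn7 had 128 ± 16.1 and 95.8 ± 13.4 FPKM, and pool 1 was the highest in 8 of 9 members, but in 5 of 9 under TMM. Over all symbol-named genes pool 1 was the highest in 49.9%, and in 31.6% under TMM. Translation factors, storage and haemolymph, patterning and neuronal lists had 2, 2, 1 and 2 measured members and 0 past 2-fold, and 1 of 3 adult genes passed, Yp3_0 (0 of 3 without pool 2 or pool 3).

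**Figure D5:**
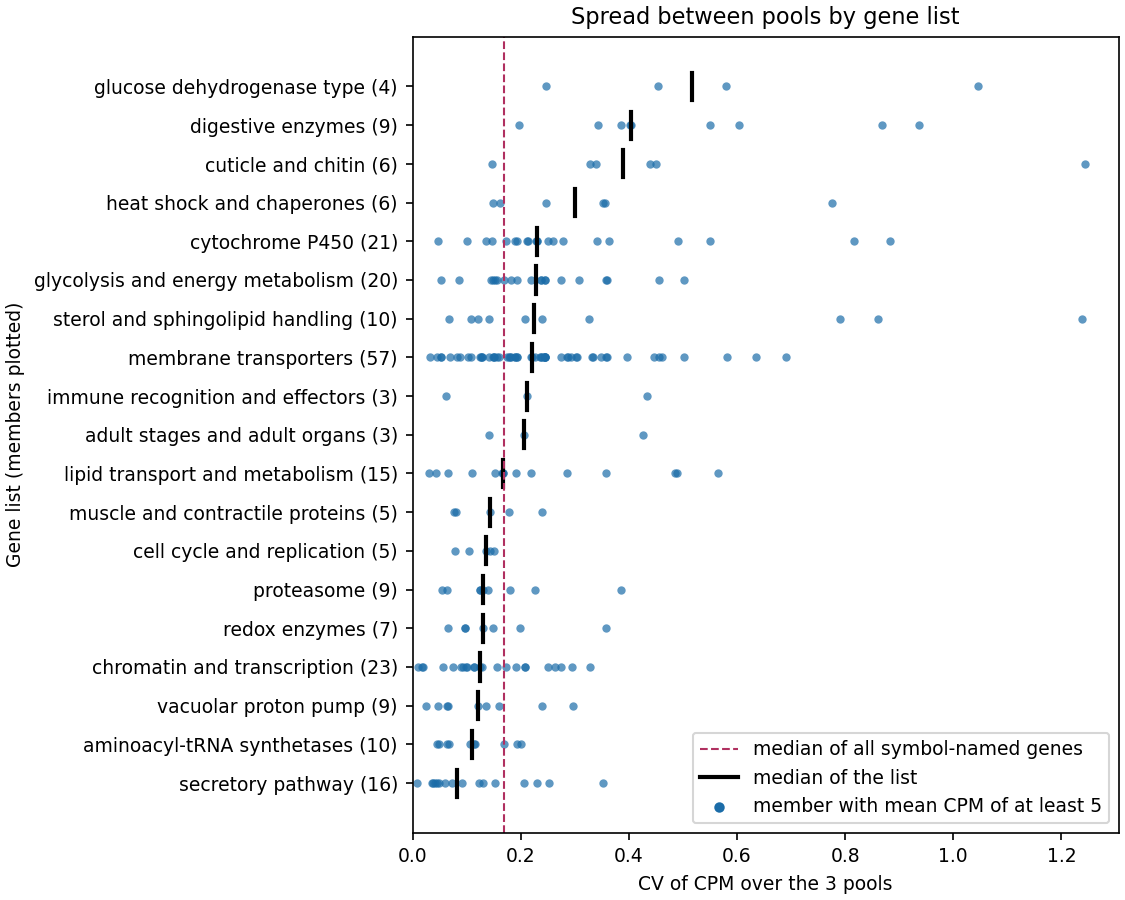
CV of CPM over the 3 pools for the members of each gene list whose mean reached 5 CPM, 1 point for each gene, with a black bar for the median of the list and a dashed line for the median of all symbol-named genes, 0.168. Lists with 3 or more members are shown, from the glucose dehydrogenase type at 0.517 to the secretory pathway at 0.0826.

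The rank of the 10 symbol-named genes with the lowest CV depended on the scaling and on the pools used. Tm9sf2_0, a membrane protein of endosomes and Golgi, had 98.6, 98.8 and 100.1 FPKM, a CV of 0.00830. Nelf-b, a subunit of the complex that pauses RNA polymerase, had 6.26, 6.30 and 6.18 FPKM. The others were Flo_0, Fzr1_0, Wfs1_0, Fit1_2, Dbp80, Spt6, Cbp80 and Tgfb1i1_0, with CVs up to 0.0216. Each of the 10 CVs lay below the gene's CV from counting error alone, which ranged from 0.0178 to 0.0734. Under TMM the CVs of the 10 were 0.0585 to 0.0907, below the symbol-named median of 0.161 under TMM, but 0 of them were among the 10 lowest, and without single pools 1 to 2 were.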

How the data were processed

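Only the 3 non-irradiated libraries were used. The authors deposited counts per gene, raw, and FPKM for each library. According to the submitters' processing notes HISAT2 and HTSeq 0.6.1p2 were used, while the methods of the study name another HTSeq version; the strand setting is not given in the sources used here. The deposited FPKM equalled count divided by library total and gene length, which gave the lengths. CPM was computed from counts by library total. Spread was described for genes with a mean of at least 5 CPM, as CV and as the highest over the lowest pool (2-fold), with exact binomial (Clopper-Pearson) 95% intervals. The counting CV is that expected from Poisson error. TMM and the common dispersion came from edgeR 4.0.16 in R 4.3.3, size factors from DESeq2 1.42.0, the rest from Python 3.11.15 with pandas 2.3.3 and scipy 1.17.1. The scripts were tested on simulated data.

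Genes named were the 15 symbol-named genes highest in FPKM, and the 15 with the highest and the 10 with the lowest CV. In each list the 3 highest and 2 most variable members were candidates, and not all of these were named. Other list members were named after their values were seen. The members and lists were chosen with earlier results of these data known. Of 16 lists of symbol patterns, 2 (cytosolic ribosomal proteins and the respiratory chain) had no member. After the values were seen, 12 matches with another meaning were left out. With all matches kept, median CVs were 0.328 for cuticle and chitin and 0.185 for immune genes. They were 0.218 for glycolysis and sugar transport and 0.0922 for the secretory pathway. Also written after the values were seen were 10 further lists (lipid, sterol and sphingolipid, proton pump, redox, proteasome, transporters, glucose dehydrogenase, chromatin, secretory, aminoacyl-tRNA synthetases). Gene order was taken from chromosome and start position in a RefSeq gene table of another assembly, idZeuCucr1.2. Neighbours were taken among the 11832 genes matched to that table, with unmatched genes left out. The symbol of 1 gene consists of digits only. The replicates are pools of larvae from separately set up dishes of eggs, per the methods of the study. ImpE2 was matched by the identifier that the study's text gives for it.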

Additional observations from a re-analysis of the deposited data

How the results depend on the processing

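Ranked by count share, the 10 highest genes took 15.2% of counts. Ranked by CPM without gene length, 10 symbol-named genes were among the 100 highest. At least 2-fold between pools were 1749 genes with a minimum of 1 CPM, 650 with 20 CPM and 4343 with no filter, and 421 to 657 when a pool was left out. Of symbol-named genes 223 passed with no filter and 39 to 62 without a pool. Of the 15 most variable, 6 stayed among the first 15 at 1 CPM, 8 at 20 CPM, 0 with no filter and 8 to 9 without a pool. Of the 10 least variable, 0 stayed under TMM, 0 under DESeq2 size factors and 1 to 2 without a pool, a summary added after their values were seen. For the same genes, 2-fold counts over fewer pools cannot rise. The other causes were not tested. Of these summary results, 55 of 78 alternatives moved no value past the replicate SD, or past a ratio of 1.5 for counts and CVs. By this rule the median CV of all genes with no filter, 0.240 against 0.171, did not move. The summary results carry no sign, so none could turn. Which pool was highest did turn with the scaling, as given above. With 3 pools the spread of a gene is known only roughly, and genes near 5 CPM rest on few counts. No paired analysis was possible because 1 group is described and no groups are compared.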
